A study of Mus musculus with 7 samples.

Results

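The circadian clock genes described here were 10 mouse genes, *Arntl*, *Clock*, *Per1*, *Per2*, *Cry1*, *Cry2*, *Nr1d1*, *Nr1d2*, *Dbp* and *Tef*, found by symbol among the 25033 gene symbols counted in RNA of lin- cells, the fraction of femur and tibia marrow that stays when cells with markers of mature lineages are taken out. The cells came from 3 wild type (WT) mice and from 4 *HRP-2* knockout (KO) mice of a systemic knockout line, C57BL/6N-Hdgfrp2<tm1b (KOMP)Wtsi>/Tcp, all aged 6 to 8 weeks. HRP-2 is a chromatin reader and the paralog of LEDGF/p75, and the comparison asks what its absence changes in early blood cells. The libraries were made from the 3′ ends of polyadenylated RNA, 1 fragment per transcript. The hour at which the mice were killed is not given in the sources used here, and neither is their sex.

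The clock is a feedback loop of transcription that runs in nearly every cell. ARNTL (also called BMAL1) and CLOCK bind E-boxes as a pair and activate the period (*Per*) and cryptochrome (*Cry*) genes, whose proteins then inhibit the pair. The same pair activates the REV-ERB genes *Nr1d1* and *Nr1d2* and the PAR bZIP genes *Dbp* and *Tef*, and the REV-ERB proteins in turn silence *Arntl* through ROR elements (RORE). In most tissues *Arntl* messenger RNA therefore peaks when *Dbp*, *Nr1d1* and *Per* messengers are low, and in bone marrow the clock is known for the daily release of stem cells and leukocytes into blood.

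The wiring can be read in the promoter letters, and the stretches below are shown because they hold the elements through which these genes are known to act on each other. RefSeq windows on GRCm38.p6, from 250 bases before to 50 bases after an annotated start, were at hand for 9 of the 10 genes, 14 windows in all; *Per2* is named only. Capitals mark the element, each stretch reads 5′ to 3′ on the strand of its gene, and positions are counted from the start site.
Arntl, RORE, chr7:113207528-113207556, plus strand, first base 27: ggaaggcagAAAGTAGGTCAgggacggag
Per1, E-box, chr11:69098753-69098818, plus strand, first base -166: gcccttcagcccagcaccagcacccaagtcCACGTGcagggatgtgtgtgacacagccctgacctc
Cry1, E-box, chr10:85185079-85185144, minus strand, first base -60: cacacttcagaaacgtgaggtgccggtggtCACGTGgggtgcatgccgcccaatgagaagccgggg
Cry2, E′-box, chr2:92434200-92434265, minus strand, first base -166: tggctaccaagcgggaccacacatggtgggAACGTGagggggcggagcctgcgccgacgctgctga
Nr1d1, E′-box, chr11:98775378-98775435, minus strand, first base -28: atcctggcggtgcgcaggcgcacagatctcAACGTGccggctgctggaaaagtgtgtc
Tef, E-box, chr15:81802516-81802581, plus strand, first base -127: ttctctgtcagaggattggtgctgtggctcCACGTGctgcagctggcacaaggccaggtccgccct
The E-box CACGTG was in 4 of the 14 windows (*Per1*, *Cry1* and both of *Tef*) and in 7.15% of all 32851 windows, and the E′-box CACGTT, which reads AACGTG on its other strand, was in 3 of the 14 (*Cry1*, *Cry2*, *Nr1d1*) and in 4.685% of all. An RORE was in 1 of the 14, a window of *Arntl*, and in 0.384% of all windows. The D-boxes TTATGTAA and TTACGTAA (0.938% and 0.119% of all windows) and the CRE TGACGTCA (1.79%) were searched on both strands as well and were in no window of these genes, and the windows of *Clock*, *Nr1d2* and *Dbp* held none of the elements searched. A match is a description of letters and was not tested as a binding site.

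Each library held between 3525665 and 5605158 reads on genes, and the 3 reads taken as the floor correspond to 0.535 to 0.851 CPM (counts scaled to library size); this floor covers counting error only. The knocked-out gene, listed as *Hdgfl2*, had 156 to 228 reads in the WT mice and 2 to 13 in the KO mice, lower in each KO mouse than in any WT mouse. The progenitor markers *Kit*, *Cd34*, *Flt3*, *Gata2*, *Meis1* and *Myb* summed to 1162 to 1398 CPM in all 7 mice, and the hemoglobin genes *Hbb-bt*, *Hbb-bs* and *Hba-a1* had 0 reads in all. KO replicate 3 stood apart in *Xist* (0.561 CPM, against 229 or more in the other 6 mice) and in the Y-linked *Ddx3y* (104.5 CPM). The ribosomal precursor *Rn45s* took 4.94% to 20.6% of the reads on genes.

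Of the 10 clock genes, 9 had enough reads to be tested, and none was past the threshold between genotypes. Levels below are CPM scaled with edgeR's TMM factors, and differences are log2 fold changes, KO minus WT, with a 95% confidence interval (CI). At an adjusted p under 0.25, the level used in the study, edgeR's quasi-likelihood test called 0 of the 9, beside 2 of the 11265 genes tested (0.0178%). At an unadjusted p under 0.05 it called 1 of the 9, *Arntl*, as lower (background 2.07% of genes tested) and 0 as higher (background 1.56%). The 9 log2 fold changes were positive for 6 and negative for 3, with a median of 0.024 beside -0.0014 over all genes tested. DESeq2 and limma-voom also called 0 of the 9 at an adjusted p under 0.25.

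**Figure D1:**
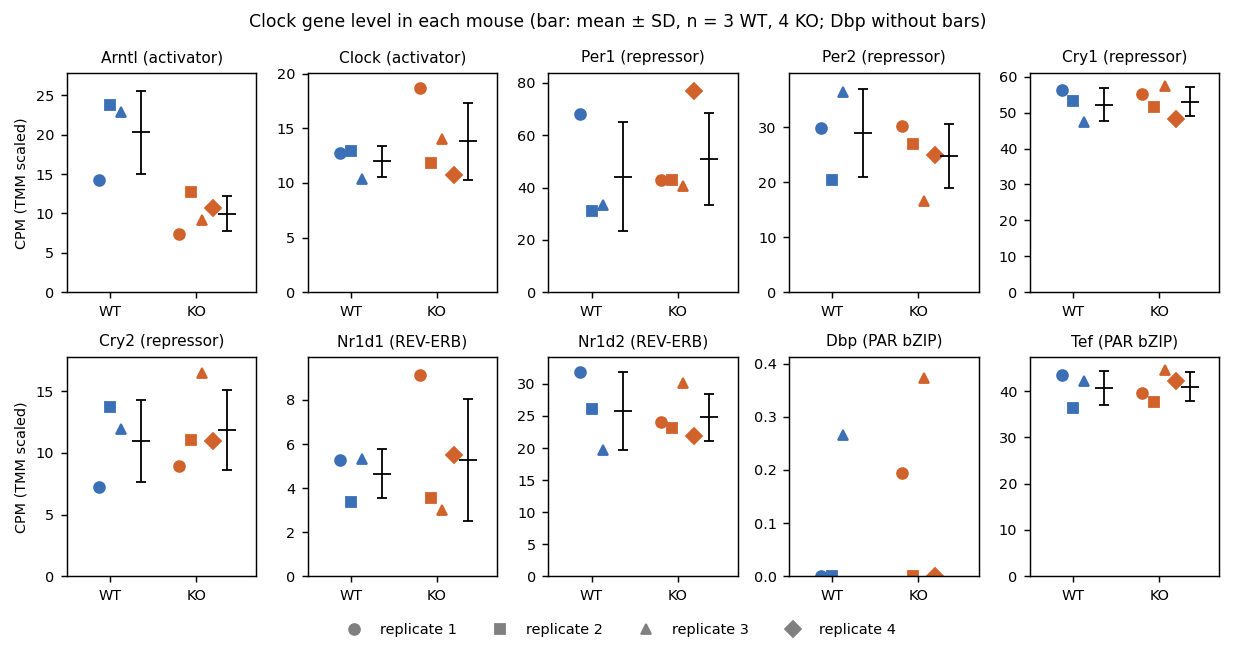
Level of each clock gene in TMM-scaled CPM (y axes start at 0, 1 panel per gene) in 3 WT mice (blue) and 4 KO mice (orange); the marker shape gives the replicate number and the bar the mean ± SD, left out for *Dbp*, which had at most 2 reads in a mouse. The 4 KO mice lie between 7.38 and 12.7 CPM for *Arntl*, below the 3 WT mice at 14.3 to 23.8 CPM, and in the other 8 panels with a test the groups overlap.

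*Arntl* (chr7:113207465-113314126, plus strand, GRCm38), the activator without which the clock stops in mice, stood at 14.3, 23.8 and 22.9 CPM in WT replicates 1 to 3. In KO replicates 1 to 4 it stood at 7.38, 12.7, 9.16 and 10.7 CPM. All 4 KO mice lay below all 3 WT mice, and the gap was narrow, between WT replicate 1 and KO replicate 2; 2.79% of all genes tested were lower in every KO mouse. The means were 20.3 ± 5.26 CPM (SD, n = 3) and 9.98 ± 2.25 CPM (SD, n = 4), and the level was 2.03-fold higher in WT mice. The log2 fold change was -1.02 (SE 0.28, 95% CI -1.61 to -0.43), with an unadjusted p of 0.00186 in edgeR, rank 25 among the genes tested. After Benjamini-Hochberg adjustment of edgeR's p-values it was 0.811. The difference therefore did not pass the correction over all genes.

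These values rest on 65, 85 and 86 reads in the WT mice and on 38, 61, 49 and 43 in the KO mice. The coefficient of variation between WT mice was 25.9%, beside 11.3% from counting alone, and between KO mice 22.6%, beside 14.5%. With WT replicate 1, the closest to the KO mice, left out, the log2 fold change was -1.22, and without WT replicate 2, the highest, it was -0.89. Without KO replicate 3, the library that stood apart in *Xist*, it was -0.98. With no filter on low counts, the adjusted p of *Arntl* was 0.238, under the threshold of 0.25, with an unchanged log2 fold change of -1.02, while 41 genes in all were then called. In whole populations of cells, fewer cells that express a gene and less of its RNA per cell cannot be told apart.

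The summed levels of some marker lists for other cells also differed between the genotypes, though the edgeR test used here called no marker of these lists at an adjusted p under 0.25. With no filter on low counts edgeR called 1 macrophage, 1 lymphoid and 1 eosinophil, basophil or mast cell marker, with the *Rn45s* share in the model 1 macrophage marker, and DESeq2 called 1 macrophage and 1 lymphoid marker. The 7 macrophage markers (*C1qa*, *C1qb*, *C1qc*, *Adgre1*, *Cd5l*, *Vcam1*, *Mrc1*), each with reads in every mouse, ranged from 325 to 393 CPM in sum in WT mice and from 220 to 281 CPM in KO mice, with no overlap. The order of the WT mice was that of *Arntl*, with 393 CPM in replicate 2, 342 CPM in replicate 3 and 325 CPM in replicate 1. *Vcam1* was the largest part of these sums, at 163, 227 and 174 CPM in WT replicates 1 to 3. It had the same order, and no other marker of the list did. The sums of KO replicates 1 to 4 were 220, 265, 281 and 248 CPM. The lowest was in replicate 1, as it was for *Arntl*, and the highest in replicate 3, which had the second lowest *Arntl* of all. Pearson's r of the summed level with *Arntl* over the 7 mice, which also holds the genotype, was 0.91. All 7 macrophage markers had a negative log2 fold change and 5 an unadjusted p under 0.05 (2.07% of all genes were lower at that level), from -0.01 for *Adgre1*, the F4/80 antigen, to -1.001 for the complement gene *C1qc*. The 6 markers of eosinophils, basophils and mast cells (*Prg2*, *Prg3*, *Epx*, *Cpa3*, *Mcpt8*, *Ms4a2*) summed to 2498 to 2609 CPM in WT and 1731 to 2328 CPM in KO mice, and all 6 had a negative log2 fold change, 3 with an unadjusted p under 0.05. The highest sum of this list was in WT replicate 1, the WT mouse with the least *Arntl*, and its r with *Arntl* over the 7 mice was 0.48. The 10 neutrophil genes summed to 15363 to 17729 CPM in WT and 17530 to 32795 CPM in KO mice, where the ranges overlap; 9 of the 10 had a positive log2 fold change, none with an unadjusted p under 0.05, with a median of 0.68. The median was 0.20 without KO replicate 3, and 0.85 and 0.83 without KO replicates 2 and 4, where 3 of the 10 had an unadjusted p under 0.05, as they did with the replicate block. The erythroid list ran from 126 to 233 CPM in WT and 57.7 to 256 CPM in KO mice, and the lymphoid list from 643 to 716 CPM and 502 to 686 CPM, both with overlap. The median log2 fold change of the 5 erythroid markers tested was -0.27. It was -0.78 with the replicate block, -0.77 without KO replicate 4 and 0.11 without KO replicate 1. Of the 9 lymphoid markers, 4 had a positive and 5 a negative log2 fold change. *Dntt* alone had an unadjusted p under 0.05 (0.00047 in edgeR, adjusted p = 0.544). It stood at 171 to 184 CPM in WT and at 77.2 to 131 CPM in KO mice. The part of these cells in the *Arntl* values was not tested.

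**Figure D2:**
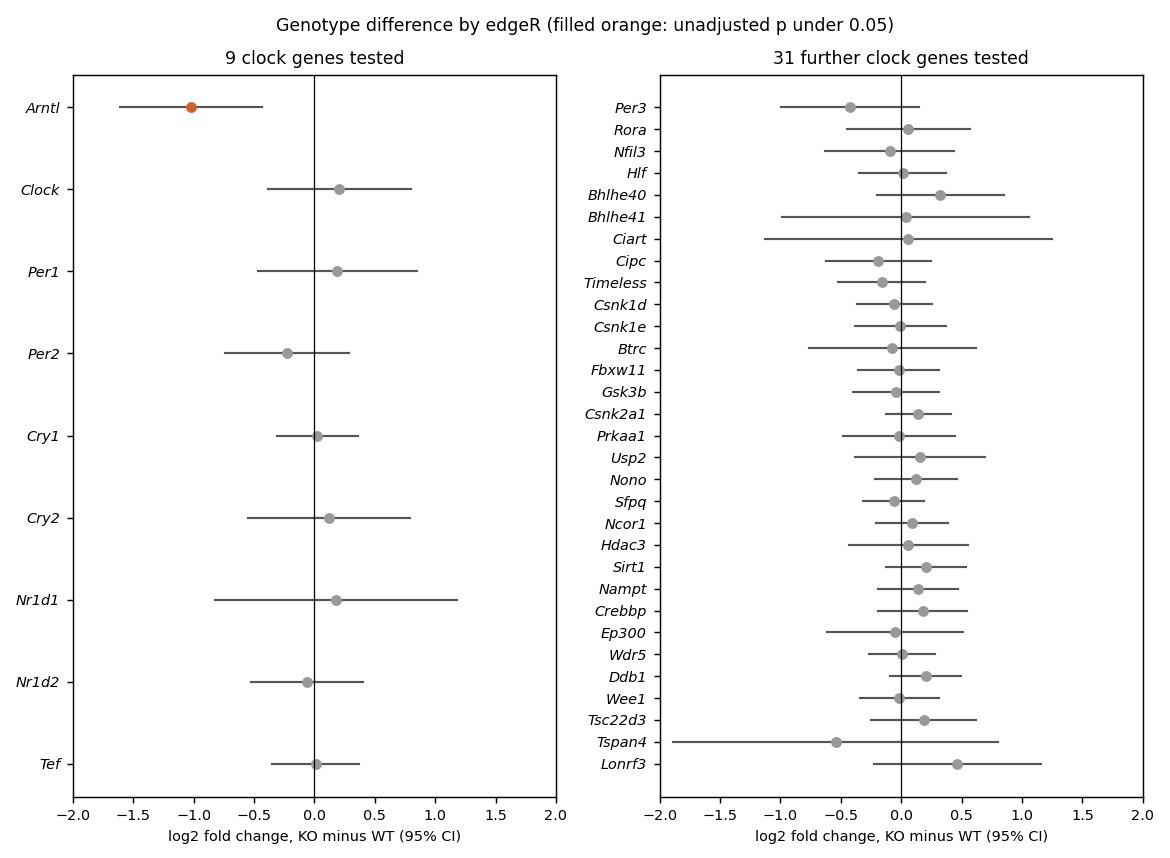
Log2 fold change (KO minus WT, x axis) with its 95% CI from edgeR for the 9 clock genes tested (left) and the 31 further clock genes tested (right), 1 gene per line. *Arntl* at -1.02 is the 1 interval that does not reach 0.

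*Clock* (chr5:76209868-76304792, minus strand), the histone acetyltransferase that pairs with ARNTL, overlapped between the genotypes. Its WT mice stood at 12.7, 12.9 and 10.4 CPM, and its KO mice at 18.7, 11.8, 14.0 and 10.7 CPM. The KO mice held both the highest value, in replicate 1, and nearly the lowest, in replicate 4. The log2 fold change of *Clock* was 0.21 (SE 0.28, 95% CI -0.38 to 0.80), an interval that leaves room for changes of either sign, and 0.030 without KO replicate 1.

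The period genes encode the repressors made each day when the ARNTL and CLOCK pair is active. *Per1* (chr11:69095217-69109960, plus strand), which also responds quickly to cAMP and to glucocorticoids, stood at 68.0, 31.1 and 33.2 CPM in WT mice and at 42.8, 42.8, 40.7 and 77.0 CPM in KO mice. Its spread came from 1 high mouse in each genotype, WT replicate 1 and KO replicate 4, and the other 5 mice lay between 31.1 and 42.8 CPM. The log2 fold change of *Per1* was 0.19 (SE 0.30, 95% CI -0.47 to 0.85), and it turned to -0.076 without KO replicate 4 and was 0.66 without WT replicate 1, with an unadjusted p of 0.0253 and an adjusted p of 0.9996 in edgeR. *Per2* (chr1:91415982-91459324, minus strand) did not share those peaks. It stood at 29.8, 20.4 and 36.4 CPM in WT mice and at 30.3, 27.0, 16.6 and 24.9 CPM in KO mice, with a log2 fold change of -0.23 (SE 0.24, 95% CI -0.74 to 0.28).

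The summed level of immediate-early genes was highest in KO replicate 4, as *Per1* was, although *Egr1* was highest in WT replicate 1, *Junb*, *Zfp36* and *Nr4a2* in KO replicate 3 and *Crem* in KO replicate 2. The sum over 12 such genes, among them *Fos*, *Jun* and *Egr1*, was 8233 CPM in KO replicate 4 and 5700 CPM in WT replicate 1, close to the 5394 and 5372 CPM of KO replicates 3 and 2, and ran from 2377 to 4367 CPM in the other 3 mice. All 12 had a positive log2 fold change, 1 of them (*Nr4a2*) with an unadjusted p under 0.05. Without WT replicate 1, 7 of the 12 had such a p and 1 an adjusted p under 0.05, beside 234 higher genes and 5 genes of the 11529 then tested, and without WT replicate 3 the median log2 fold change went from 0.50 to 0.23 with 2 of the 12 negative. With no filter on low counts, 4 had an unadjusted p under 0.05 and 1 an adjusted p under 0.05, beside 350 higher genes and 19 genes of 16378. A list of 7 glucocorticoid-induced genes, which shares *Dusp1* with the first, summed to 1536 CPM in KO replicate 4, 1037 CPM in WT replicate 1 and 506 to 956 CPM in the others. *Dusp1* carried most of that spread, and the other 6 genes summed to 470 CPM in KO replicate 4, 430 CPM in WT replicate 1 and 322 to 413 CPM in the others. The 5 megakaryocyte markers also peaked in KO replicate 4, at 867 CPM beside 100.7 to 357 CPM elsewhere, led by *Pf4* at 572 CPM. Their median log2 fold change was 0.11. It was -1.09 without KO replicate 4, -1.26 with the replicate block and 0.53 without KO replicate 1. The part of these genes and cells in the *Per1* values was not tested.

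The cryptochromes, partners of the period proteins and the stronger inhibitors of the pair, did not differ between genotypes beyond their spread. *Cry1* (chr10:85131700-85185064, minus strand) was among the steadiest, with 56.2, 53.2 and 47.3 CPM in WT mice and 55.2, 51.5, 57.6 and 48.1 CPM in KO mice. Its log2 fold change was 0.024 (SE 0.16, 95% CI -0.31 to 0.36), and its coefficients of variation of 8.65% in WT and 7.82% in KO mice were close to the 6.93% and 6.22% from counting alone. *Cry2* (chr2:92403646-92434043, minus strand) varied more, on 33 to 88 reads a mouse: 7.24, 13.7 and 12.0 CPM in WT mice and 8.94, 11.01, 16.4 and 10.96 CPM in KO mice. Its lowest value was in WT replicate 1 and its highest in KO replicate 3, and the log2 fold change was 0.12 (SE 0.32, 95% CI -0.55 to 0.79).

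The REV-ERB genes encode the nuclear receptors that silence *Arntl*. *Nr1d1* (chr11:98767932-98775333, minus strand) was read thinly, on 12 to 47 reads a mouse, with 5.27, 3.36 and 5.31 CPM in WT mice and 9.13, 3.53, 2.99 and 5.48 CPM in KO mice. KO replicate 1, the mouse with the least *Arntl*, held the highest *Nr1d1*, and the other 3 KO mice lay in the range of the WT mice or close to it. The log2 fold change of *Nr1d1* was 0.18 (SE 0.48, 95% CI -0.82 to 1.18), and -0.23 without KO replicate 1. *Nr1d2* (chr14:18204054-18239127, minus strand) had 74 to 161 reads a mouse and stood at 31.8, 26.0 and 19.7 CPM in WT mice and at 24.1, 23.1, 30.1 and 21.9 CPM in KO mice. All KO values of *Nr1d2* lay inside the range of the WT mice, with a log2 fold change of -0.061 (SE 0.22, 95% CI -0.53 to 0.41).

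The PAR bZIP factors carry the rhythm to output genes through D-boxes. *Tef* (chr15:81802421-81826863, plus strand) was as steady as *Cry1*, with 43.4, 36.4 and 42.2 CPM in WT mice and 39.6, 37.6, 44.7 and 42.1 CPM in KO mice, and a log2 fold change of 0.0097 (SE 0.17, 95% CI -0.35 to 0.37). *Dbp* (chr7:45705088-45710203, plus strand), in most tissues one of the genes with the widest daily swing, had 4 reads in all 7 mice together: 0, 0 and 1 in WT mice and 1, 0, 2 and 0 in KO mice. Both groups were under the floor of 3 reads, so no fold is given, and *Dbp* failed the filter on low counts.

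The annotation at the 3′ end of *Dbp* is given beside that count. In GENCODE M21 on GRCm38 the whole of its last 500 transcript bases, where a 3′ library reads, lies within an exon of *Sphk2*, a sphingosine kinase gene on the opposite strand (chr7:45709467-45718002) that overlaps *Dbp* by 737 bases. *Sphk2* stood at 76.1, 76.4 and 79.4 CPM in WT mice and at 70.0, 63.2, 74.9 and 83.97 CPM in KO mice. *Nr1d1* was the other clock gene so placed, with 52.6% of its last 500 transcript bases under exons of *Thra*, the thyroid hormone receptor gene on the opposite strand (chr11:98740638-98769006), which stood at 67.5 to 86.7 CPM in WT and 72.7 to 108.0 CPM in KO mice. The other 8 clock genes had 0% of theirs overlapped, and 605 of the 11160 annotated genes tested (5.42%) had more than 50% overlapped. The files tally reads on more than 1 gene as ambiguous, 1.99% to 2.403% of the reads tallied in a library, apart from the gene counts, and which strand was counted is not given in the sources used here, so the levels of *Dbp* and *Nr1d1* are uncertain, and the part of the overlap in their low counts was not tested.

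**Figure D3:**
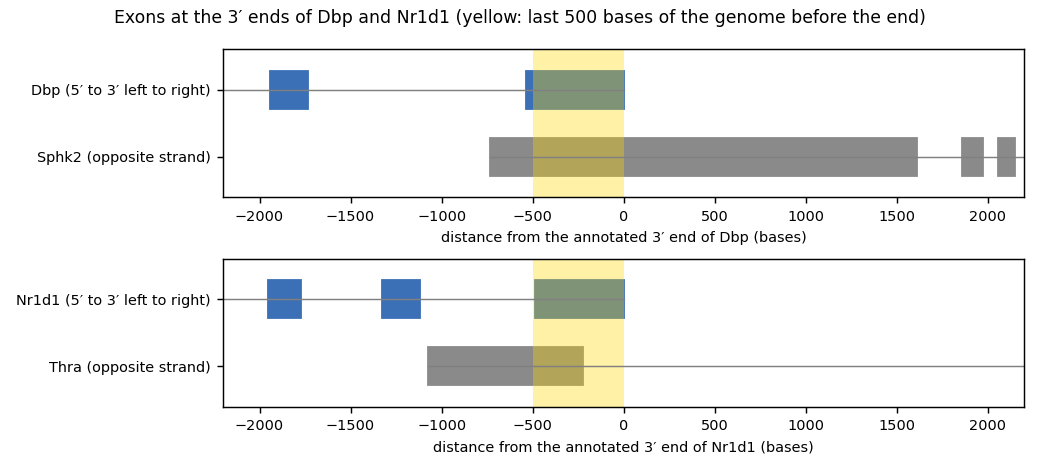
Exons (boxes) around the annotated 3′ ends of *Dbp* and *Nr1d1* (blue) and of the genes on the opposite strand (grey), on an x axis of distance from the 3′ end in bases; yellow marks the last 500 bases of genome. An exon of *Sphk2* covers the whole band at *Dbp*, and an exon of *Thra* covers part of the last exon of *Nr1d1*.

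The second comparison set *Arntl* beside the other clock genes mouse by mouse, since a shift of the loop as a whole moves its members in known directions. On log2(CPM + 1), *Arntl* was above its mean over the 7 mice by 0.092, 0.79 and 0.74 in WT replicates 1 to 3, and its deviations in KO replicates 1 to 4 were -0.77, -0.066, -0.50 and -0.29. The 6 genes tested that peak away from *Arntl* in most tissues (*Per1*, *Per2*, *Cry2*, *Nr1d1*, *Nr1d2*, *Tef*) had mean deviations of 0.13, -0.18 and -0.0017 in the WT mice and of 0.097, -0.10, -0.062 and 0.12 in the KO mice. Their means thus stayed within 0.18 of 0 in every mouse and had both signs in each genotype. Such a mean hides single deviations, which ran from -0.60 for *Per2* in KO replicate 3 to 0.82 for *Nr1d1* in KO replicate 1. A shift of the loop as a whole was not tested. The 2 genes grouped with *Arntl*, *Clock* as its partner and *Cry1* as the repressor that peaks nearest to it, had mean deviations of 0.042, 0.011 and -0.22 in WT mice and of 0.29, -0.067, 0.12 and -0.18 in KO mice.

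**Figure D4:**
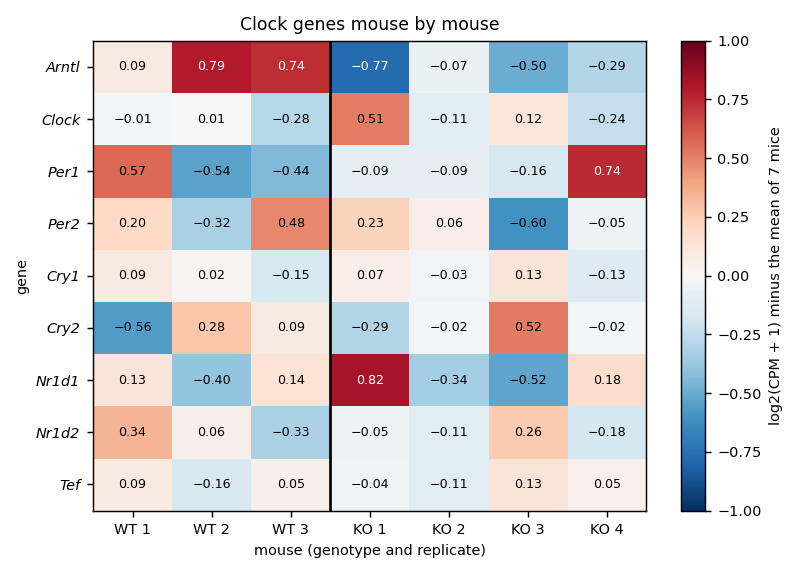
Deviation of each clock gene from its mean over the 7 mice, in log2(CPM + 1), printed in each cell and coloured from blue (lower) to red (higher); columns are mice, with WT left of the line. The *Arntl* line changes sign between genotypes, and no other line does.

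The deviations of 2 mice leaned one way across the loop, and those of the other 5 were mixed. KO replicate 2 was below the mean in 8 of the 9 genes, with -0.34 for *Nr1d1* and values between -0.11 and -0.017 for the other 7, and WT replicate 1 was above it in 7 of the 9. In the other mice between 3 and 5 of the 9 genes were above their mean. The extremes fell on many mice. KO replicate 1 had the lowest *Arntl* with the highest *Clock* and *Nr1d1*, whereas KO replicate 3 had the highest *Cry1*, *Cry2* and *Tef* with the lowest *Nr1d1* and *Per2*. WT replicate 2 had the highest *Arntl* with the lowest *Per1* and *Tef*, and WT replicate 3, with nearly as much *Arntl*, had the highest *Per2*.

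Across the 7 mice, none of 8 correlations with *Arntl* passed a two-sided exact permutation test over all pairings at p under 0.05, beside 5.3% of the 11264 other genes. The pair *Clock* and *Arntl* had the largest coefficient, and it was negative, with Pearson's r = -0.62 (exact permutation p = 0.138) and Spearman's rho = -0.50. With WT replicates 2 and 3, the mice farthest from the median of *Arntl*, left out, r was -0.75, and with both genes centred on their genotype means it was -0.67 (permutation p within genotypes = 0.118). Without KO replicate 1, the mouse with the most *Clock* and the least *Arntl*, r was -0.30 (exact permutation p = 0.539). Of the 6 genes of opposite phase, 4 had a negative r: *Per1* at -0.44, *Nr1d1* at -0.37, *Tef* at -0.32 and *Nr1d2* at -0.23. *Per2* had an r of 0.20 and *Cry2* of 0.17, and *Cry1*, of the partner group, had one of -0.44. Without the same 2 mice, r was 0.50 for *Per1*, 0.25 for *Nr1d2*, 0.023 for *Tef* and -0.35 for *Cry2*, each with the opposite sign, and -0.43 for *Nr1d1*, -0.20 for *Cry1* and 0.23 for *Per2*.

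The exact permutation p ran from 0.138 to 0.716 for Pearson's r and from 0.267 to 0.906 for Spearman's rho over the 8 pairs, and the Benjamini-Hochberg adjusted values over all 11264 genes were 0.980 or more. The median absolute r with *Arntl* over all these genes was 0.310, so coefficients of this size were common. The *Arntl* values of the genotypes did not overlap, so a pooled r also holds the genotype; centred on the genotype means, r was -0.43 for *Per1*, -0.56 for *Nr1d1*, -0.60 for *Nr1d2*, -0.51 for *Tef*, -0.65 for *Cry1*, 0.60 for *Cry2* and -0.14 for *Per2*, none with p under 0.05.

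**Figure D5:**
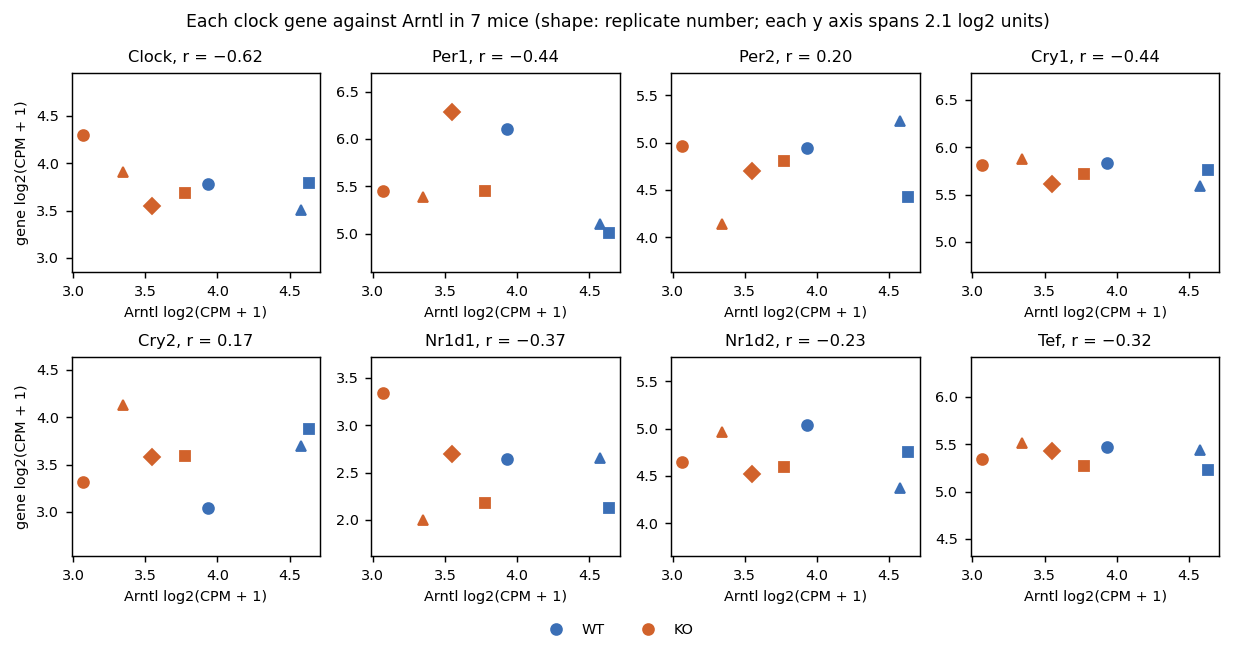
Level of 8 clock genes (y axes, each spanning 2.1 log2 units) against that of *Arntl* (x axis), both as log2(CPM + 1), in 3 WT (blue) and 4 KO (orange) mice, with Pearson's r in each title. The r runs from -0.62 for *Clock* to 0.20 for *Per2*, and the KO mice sit to the left of the WT mice in every panel.

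The ratio of *Arntl* to another clock gene, as the difference on log2(CPM + 1), was lower in every KO mouse than in every WT mouse for 3 of the 8 genes, *Clock*, *Cry1* and *Cry2*. That difference contains *Arntl* itself, and the same held for 54.7% of all 11264 genes, and the share among the clock genes was not above it. For *Cry2* the difference was 0.89, 0.75 and 0.88 in WT mice and -0.25, 0.19, -0.78 and -0.030 in KO mice. For *Clock* it ran from 0.15 to 1.07 in WT mice and from -1.23 to 0.090 in KO mice.

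By Pearson's r over the 7 mice, the genes above 10 CPM (8514) with the pattern most like that of *Arntl* were *Tusc2* (0.98), *Lmo2* (0.96), a bridging protein of blood cell transcription complexes, *Nek7* (0.96), a kinase, *Ifnar1* (0.95), a chain of the type I interferon receptor, and *Etaa1* (0.94), an activator of the ATR kinase. *Lmo2* stood at 150.1, 173.6 and 156.2 CPM in WT mice and at 123.0, 139.0, 131.5 and 134.3 CPM in KO mice, in the same order of mice as *Arntl*. The most opposite were *Pex11a* (-0.99), a peroxisome division gene, *Rab24* (-0.98), a small GTPase, *Tns4* (-0.97), a tensin, *Limk2* (-0.97), a LIM kinase, and *Supv3l1* (-0.96), a mitochondrial RNA helicase. These 10 genes were picked for their r, which is a description, and the smallest adjusted p over all genes was 0.497. No clock gene was among them.

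A wider list of 35 clock genes was read for the rest of the machinery, and 31 of them had enough reads to be tested. None was called at an adjusted p under 0.25 and 0 had an unadjusted p under 0.05, beside the 0.0178%, 2.07% and 1.56% of all genes given above. The log2 fold changes were positive for 17 and negative for 14, with a median of 0.011, and for no gene did the groups fail to overlap (background 2.79% lower and 2.37% higher in every KO mouse). They ran from -0.54 for *Tspan4*, a rhythmic tetraspanin gene with 66 reads in all, to 0.46 for *Lonrf3*.

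Among other members of the loop, 9 of 12 were tested, 5 with a positive and 4 with a negative sign. *Per3*, the third period gene, had the smallest p of the wider list (0.135, adjusted p = 0.999 from edgeR). It stood at 16.2, 16.0 and 14.9 CPM in WT mice and at 11.7, 11.4, 8.41 and 15.4 CPM in KO mice, with KO replicate 4 inside the WT range and a log2 fold change of -0.43 (SE 0.27). *Rora*, the receptor that activates *Arntl* at the sites where REV-ERB silences it, had one of 0.060 (SE 0.24) on 15.9 to 24.5 CPM. *Nfil3*, the repressor at D-boxes, had -0.095 (SE 0.25), and *Hlf*, the PAR bZIP gene known for its expression in stem cells, lay between 39.9 and 47.6 CPM in all mice (log2 fold change 0.011, SE 0.17). The E-box repressor gene *Bhlhe40* had 0.32 (SE 0.25), from 12.8 to 23.3 CPM in WT and 19.8 to 29.1 CPM in KO mice.

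The 3 members of the loop left untested, and *Fbxl21*, had few reads. *Npas2*, the gene that stands in for *Clock* in forebrain, had 28 reads over the 7 mice, *Arntl2*, the paralog of *Arntl*, had 1, *Rorb* had 15, and *Fbxl21* had 18. They failed the filter on low counts, so no difference is given for them.

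Of the genes that set the life of period and cryptochrome proteins, 8 of 9 were tested and 6 had a negative sign, with the casein kinase genes *Csnk1d* at -0.059 (SE 0.15) and *Csnk1e* at -0.0082 (SE 0.18). Of 10 coregulators of the loop, 8 had a positive sign, among them the deacetylase gene *Sirt1* at 0.21 (SE 0.16) and *Nampt*, which supplies its NAD, at 0.14 (SE 0.16). Among 8 output genes known to follow the clock in many tissues, which share genes with the other lists, 6 had a positive sign; the mitotic kinase gene *Wee1* stood at -0.015 (SE 0.16) and the glucocorticoid-induced *Tsc22d3* at 0.18 (SE 0.21). None of these passed the test in either direction.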

How the data were processed

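RNA of lin- cells from 3 WT and 4 KO mice was read as 75 bp single reads of 3′ libraries. According to the methods, reads were aligned to GRCm38 with STAR, and the authors deposited raw counts per gene symbol and mouse, whole numbers that are not normalized; 5 tally rows per file were left out. The strand counted is not given in the sources used here. Groups and replicate numbers come from the labels, and the study describes each library as 1 animal.

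From the counts, edgeR 4.0.16 (R 4.3.3) gave TMM factors, CPM, the filterByExpr filter and the robust quasi-likelihood test over 11265 genes, without a replicate block. The SE is the log2 fold change divided by the square root of F. Correlations used log2(CPM + 1) and all pairings of the 7 mice (scipy 1.17.1). Both steps were tested on simulated data. Depth was 3525665 to 5605158 reads on genes, and every pair of libraries within a genotype differed beyond sampling noise. Coordinates are from GENCODE M21 and promoter windows from RefSeq, both GRCm38.

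Named were the 10 members, the further clock genes, the 5 genes with the highest and 5 with the lowest r with *Arntl*, *Hdgfl2*, and list genes that moved with a member; *Xist*, *Ddx3y*, *Rn45s*, *Sphk2* and *Thra* were added after values were seen. The members and lists were chosen with earlier results of these data known, and 2 further clock genes are not reported here. Alternatives were DESeq2 1.42.0, limma-voom (limma 3.58.1), other scaling, filters and pseudocounts, the share of *Rn45s* as a covariate, the replicate block, centring on genotype and the omission of mice.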

Additional observations from a re-analysis of the deposited data

Results flagged for a closer look

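*Per1* in KO replicate 4 stood at 77.0 CPM, far from the other 3 KO mice at 40.7 to 42.8 CPM: its gap to the nearest of them was 0.943 of the range of the group, above Dixon's 95% critical value for 4 samples. It was the 1 such value among the 40 clock genes with a test, and chance alone puts about 1 in 20 groups, here 2.0, past that value.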

How the results depend on the processing

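The count of clock genes called at an adjusted p under 0.25 was 0 under 7 of 8 alternatives and 1 (*Arntl*, adjusted p = 0.238 by edgeR) with no filter on low counts. *Arntl* kept a negative log2 fold change throughout, -1.06 to -0.96 over the 8 alternatives and -1.22 to -0.89 over the omission of each mouse, with adjusted p from 0.238 to 0.9999. The signs of small differences turned: *Nr1d2* was 0.0065 with the replicate block, and *Tef* was -0.0050 with upper quartile factors and -0.0021 with the block. Over the omission of each mouse, log2 fold changes ran from 0.030 to 0.31 for *Clock*, -0.42 to -0.031 for *Per2*, -0.076 to 0.66 for *Per1*, -0.042 to 0.088 for *Cry1*, -0.11 to 0.31 for *Cry2*, -0.23 to 0.38 for *Nr1d1*, -0.22 to 0.13 for *Nr1d2* and -0.063 to 0.067 for *Tef*; without WT replicate 1, *Per1* had an unadjusted p of 0.0253 in edgeR. Of the correlations with *Arntl*, r turned to -0.14 for *Per2* when centred on genotype, and without the 2 farthest mice to 0.50 for *Per1*, -0.35 for *Cry2*, 0.25 for *Nr1d2* and 0.023 for *Tef*. Over the omission of each mouse, r ran from -0.78 to -0.30 for *Clock*, -0.66 to -0.15 for *Cry1*, -0.60 to -0.22 for *Per1*, -0.054 to 0.57 for *Cry2*, -0.52 to 0.12 for *Tef*, -0.18 to 0.57 for *Per2*, -0.37 to 0.15 for *Nr1d2* and -0.68 to 0.16 for *Nr1d1*. The cause of these turns was not tested. Same-numbered mice did not deviate together (correlations -0.025, -0.22 and -0.16, and 0 of 3 WT mice correlated best with their own number). A check on 3 numbers cannot exclude a pairing, and the labels state none. With the replicate block, 0 of the 9 clock genes and 0 of the 31 further genes were called, and 1 gene in all instead of 2. Calls over all genes ranged from 1 to 41, with 18 by DESeq2, 8 with the *Rn45s* share in the model and 41 with no filter. *Nr1d1* had 12 to 47 reads a mouse, and its coefficient of variation between KO mice, 52.6%, was above the 19.8% from counting alone; the cause of the 4 reads of *Dbp* was not tested.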
